A study of Mus musculus with 15 samples.

Results

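The axon guidance ligands and receptors described here are the semaphorins, plexins, neuropilins, ephrins, Eph receptors, Slits, Robos, netrins and netrin receptors of the mouse prefrontal cortex (PFC). They were taken by symbol alone: Sema, Efna, Efnb, Epha, Ephb, Robo, Slit or Ntn directly followed by a number, a symbol that starts with Plxn or Unc5, and Nrp1, Nrp2 and Dcc. This rule gave 72 entries with 71 symbols among the 26145 listed genes. By family they are 20 semaphorins (7 of class 3, 6 of class 4 and 7 of classes 5 to 7), 11 plexins and neuropilins, 9 ephrin entries, 14 Eph receptors, 7 Slits and Robos and 10 netrins and netrin receptors. Unc5cl is counted among the netrin receptors by its symbol alone. The remaining entry, Unc50, encodes a Golgi protein, shares only its prefix with the netrin receptors, and is counted but kept apart.

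The tissue came from male C57BL/6N mice, and each of the 15 libraries was made from the pooled PFC of 2 mice by droplet capture, with every mRNA molecule counted once through a unique molecular identifier (UMI) at its 3′ end. Of these, 3 libraries are of mice at P21 (3 weeks), without surgery or drug. The 12 libraries of adults (P60 in the study, 8 to 10 weeks in the labels) are 2 for each of 6 groups of intravenous self-administration: saline or cocaine, at maintenance, at 48 h and at 15 days of withdrawal. The age comparison below set the 3 P21 libraries against the 6 P60 saline libraries, which differ in surgery and self-administration as well as in age. No library holds cells of both ages, so age and library batch cannot be told apart. The number of P21 mice in the study's methods is smaller than 2 per library would need, so P21 libraries may share animals, and p-values measure the spread between libraries. A label field names the nucleus accumbens as the tissue, whereas the titles and the study name the PFC.

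The deposited table assigned 35360 cells, 10538 at P21 and 24822 at P60, to 8 cell types and 104 finer clusters named L2, of which 26 are excitatory, 12 inhibitory and 13 endothelial. For P21 cells other than neurons the L2 label names the type alone, without a cluster. The retained cells of a library held 8375172 to 42892922 UMIs, with a median of 3426 to 11334.5 UMIs per cell, and no pair of libraries shared more than 27 cell barcodes. Beside the type named by its L2 cluster, which is used here, a cell carries a deposited cell type, and the 2 differed for 459 of the P21 cells (4.36%) and 33 of the P60 cells (0.133%). In the P21 and P60 saline libraries the marker list of each type was highest in that type, but some types held much of another list. The inhibitory neurons held 2474 to 3119 CPM of Snap25, a gene of the excitatory list that both classes of neurons express, beside 2326 to 4113 CPM of their own 3 genes. The newly formed oligodendrocytes held 17170 to 28550 CPM of the mature oligodendrocyte genes beside 2132 to 3043 CPM of their own 3 genes. In the only P21 library with enough of them, the oligodendrocyte precursors held 1571 CPM of astrocyte genes beside 1089 CPM of their own. At P60 saline they held 1039 to 1352 CPM beside 863 to 1702 CPM. The endothelial class also held 4070 to 7605 CPM of 6 pericyte and smooth muscle genes (Rgs5, Vtn, Kcnj8, Acta2, Tagln and Myh11), beside 7848 to 13180 CPM of 5 endothelial genes. Levels are given as CPM, the UMIs of a gene per 1000000 UMIs in the pooled cells of a type within a library, and the totals exclude mitochondrial and ribosomal protein genes. In such sums, fewer expressing cells and less RNA per cell cannot be told apart, and because each transcript is counted only at its 3′ end, levels are compared here between cell types and ages, never between genes.

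Axon guidance molecules steer growing axons by attraction or repulsion and, in the mature brain, are also known for roles at synapses, in myelinating cells and in blood vessels. Class 3 semaphorins are secreted and bind neuropilins, which signal with plexins, whereas most other semaphorins bind plexins directly. Ephrins are membrane-bound ligands of Eph receptors and can themselves signal back into the cell that carries them. Slits bind Robo receptors, and netrins bind DCC and the UNC5 receptors.

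At P60, 64 of the 72 entries had at least 20 UMIs in the cell type where their mean level was highest. For 20 of these that type was the excitatory neurons, for 14 the endothelial cells, for 9 the inhibitory neurons and for 9 the newly formed oligodendrocytes (NF Oligo). The oligodendrocyte precursors (OPC) and the mature oligodendrocytes (Oligo) were highest for 4 each, and the astrocytes and the microglia for 2 each. The deposited types were made from these cells' own genes, so the levels across types are a description without a test.

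**Figure D1:**
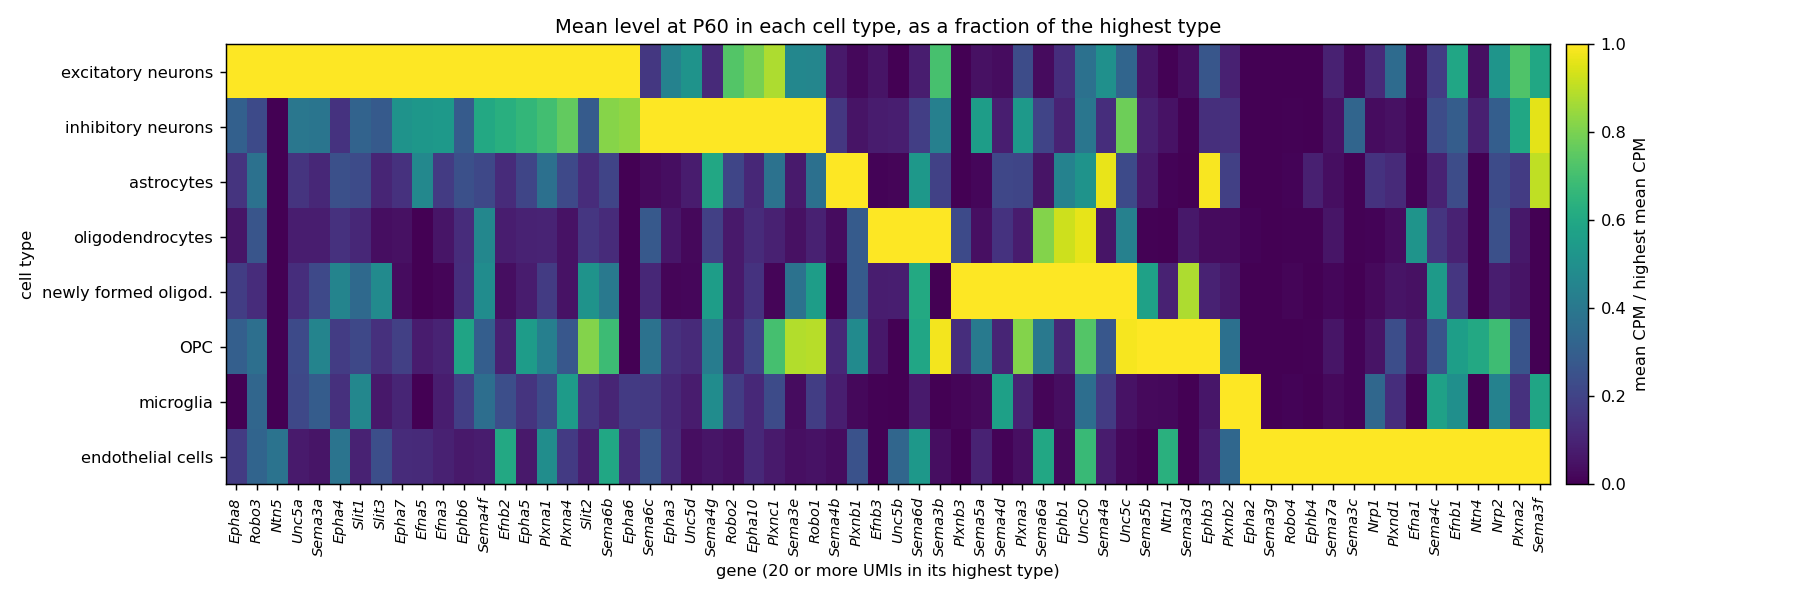
Mean CPM of 64 axon guidance genes (columns, in the order of their highest type) in 8 cell types (rows) over P60 libraries that held 10 or more such cells, each gene divided by its own highest type, so that 1 on the colour scale is that type. In the endothelial block Sema3g, Robo4, Ephb4 and Sema7a are near 0 in every other row and most of the other columns reach a visible level elsewhere, whereas the columns of the NF Oligo and OPC block often shade into each other.

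Among the ligands, Efnb3, the ephrin-B3 that is known as a midline barrier to corticospinal axons and as an inhibitor in myelin, was at 604 ± 49.3 CPM (SD, n = 12) in mature oligodendrocytes. This was 12.2 times its level in newly formed oligodendrocytes (49.3 ± 42.3 CPM), and higher in 11 of 11 libraries with both types. Within the newly formed oligodendrocytes the level was uneven: 209 CPM in the L2 cluster NF Oligo_1 (46 cells) against 22.5 CPM in the next of its 9 clusters. The same small cluster was also the highest of the 9 for Sema6d, a transmembrane ligand of plexin-A1 (221 CPM against 113 CPM in the next), and for Unc5b, a netrin receptor (77.4 CPM against 12.4 CPM). In mature oligodendrocytes Unc5b was at 177 ± 47.1 CPM, 3.01 times its endothelial level and higher in 12 of 12 libraries. Sema6d was at 102 ± 16.3 CPM there, and its lead over newly formed oligodendrocytes (1.64 times, 9 of 11 libraries) was smaller.

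The newly formed oligodendrocytes had the highest level of the receptor Plxnb3, a plexin-B for Sema5a (212 ± 76.4 CPM, 4.43 times mature oligodendrocytes, 11 of 11 libraries), and also of Sema5a itself (145 ± 48.2 CPM, 1.80 times inhibitory neurons, 11 of 11). Sema4d, a semaphorin that binds plexin-B1 and is known to be made by oligodendrocyte-lineage cells, was highest there too (89.3 ± 29.7 CPM, 1.76 times microglia, 9 of 11). The reads of Sema4d share their 3′ end with a gene on the same strand, Gm15440, so part of its UMIs may belong to that gene. Plxna3 (20.5 ± 11 CPM) had the same type on top, but OPC were at 16.7 ± 9.43 CPM and above it in 5 of 11 libraries, so these neighbours did not differ beyond their spread. OPC led for Sema5b (40.5 ± 19.97 CPM, 1.75 times NF Oligo at 23.2 ± 15.7 CPM), Ntn1, the netrin known to guide OPC and commissural axons (60.8 ± 30.2 CPM, 1.58 times endothelial cells at 38.6 ± 10.5 CPM), Sema3d (96.3 ± 30.5 CPM, 1.14 times) and Ephb3 (24.0 ± 12.9 CPM, 1.01 times). OPC were above the next type for Sema5b in 9 of 11 libraries, for Sema3d in 8, for Ntn1 in 7 and for Ephb3 in 4, and for all of them the difference of the means was smaller than the SD of the OPC libraries.

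Endothelial cells held the members with the widest gaps to the next type among those named here, Sema3g and Robo4. Sema3g, a class 3 semaphorin known from vessels, was at 46.4 ± 9.31 CPM, 435 times the next type. Robo4, the endothelial Robo that stabilises vessels, was at 141 ± 11.1 CPM (79.7 times), Ephb4, the Eph receptor of veins, at 37.2 ± 7.12 CPM (11.1 times), and Sema7a, a semaphorin anchored in the membrane by a lipid, at 177 ± 21.8 CPM (10.9 times). Each of these was above the next type in every library compared (11 or 12). In astrocytes Sema4b (44.4 ± 8.71 CPM, 6.22 times inhibitory neurons, 11 of 11) and the Sema4d receptor Plxnb1 (60.2 ± 12.2 CPM, 2.10 times OPC, 10 of 11) were highest. Microglia led for Plxnb2 (74.0 ± 16.4 CPM, 2.70 times OPC, 11 of 11), whereas Epha2 stood at 16.0 ± 4.88 CPM in microglia and 15.9 ± 3.88 CPM in endothelial cells, a tie.

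Among neurons, the excitatory class led for the netrin receptor Unc5a (25.4 ± 5.19 CPM, 2.52 times inhibitory neurons, 11 of 12 libraries), for Robo3, the Robo known from commissural axons (2.49 ± 0.805 CPM, 2.68 times astrocytes, 9 of 11), for Epha8 (1.54 ± 0.348 CPM, 3.27 times inhibitory neurons, 11 of 12) and, at 77 UMIs in all, for Ntn5. Unc5a has the gene Hk3 on the other strand at its 3′ end. The inhibitory class led for Unc5d, another UNC5 receptor (58.2 ± 16.7 CPM, 1.95 times excitatory neurons, 11 of 12), Epha3 (20.9 ± 8.93 CPM, 2.25 times, 10 of 12), Sema4g (16.0 ± 4.32 CPM) and Sema6c (3.82 ± 2.26 CPM).

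The 26 excitatory L2 clusters differed widely in these genes. The largest ratios of the highest to the median cluster were those of Sema5a, Sema5b, Sema3c, Robo3, Sema3e, Sema4g, Nrp1 and Dcc, in that order. These values are means over the P60 libraries with at least 10 cells of the cluster, and again describe clusters that were made from these genes.

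Sema5a was concentrated in 4 clusters: 64.1 ± 31.5 CPM in Exc_18 (n = 7), 62.5 ± 11.4 CPM in Exc_19 (n = 12), 47.6 ± 18.8 CPM in Exc_20 (n = 8) and 32.7 ± 13.4 CPM in Exc_21 (n = 12). The next cluster, Exc_13, was at 9.34 CPM and the median cluster at 0.959 CPM. The first 3 of these clusters are those with Foxp2 (121 to 170 CPM), Syt6 (75.5 to 106 CPM) and Rprm (1558 to 2192 CPM), markers of layer 6 corticothalamic neurons, and Exc_21 is the cluster with Tshz2 (2066 CPM) and Etv1 (697 CPM). These markers were looked up after the levels of the members were seen. The related ligand Sema5b followed the same clusters, with 24.0 ± 11.6 CPM in Exc_20, 15.2 ± 6.41 CPM in Exc_19 and 12.8 ± 6.57 CPM in Exc_21 against a median of 0.612 CPM. In Exc_18, the highest cluster of Sema5a, it was only at 7.10 ± 7.53 CPM, with 4.76 ± 3.11 CPM in Exc_13. Nrp1, the receptor for secreted semaphorins, had the same 4 on top: 144 ± 33.8, 125 ± 14.9, 124 ± 23.2 and 88.5 ± 25.5 CPM in Exc_18 to Exc_21, and 67.6 ± 13.5 CPM in Exc_13, against a median of 15.6 CPM.

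These 3 genes shared their highest excitatory clusters and, as described further on, were lower at P60 over the excitatory class as a whole. Therefore the 250 bases before their transcription starts are shown, 5′ to 3′ on the strand of the gene, from RefSeq on GRCm38.p6. Capitals mark GGGCGG, the core of the GC box, on either strand, with overlapping matches counted. The windows are chr15:32244563-32244812 (Sema5a), chr16:35541112-35541361 (Sema5b) and chr8:128358823-128359072 (Nrp1), each on the plus strand.
Sema5a: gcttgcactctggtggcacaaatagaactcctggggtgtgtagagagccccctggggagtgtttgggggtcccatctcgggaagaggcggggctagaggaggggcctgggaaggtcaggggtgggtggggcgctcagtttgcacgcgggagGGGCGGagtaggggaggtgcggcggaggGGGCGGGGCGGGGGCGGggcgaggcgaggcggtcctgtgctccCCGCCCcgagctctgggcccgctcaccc
Sema5b: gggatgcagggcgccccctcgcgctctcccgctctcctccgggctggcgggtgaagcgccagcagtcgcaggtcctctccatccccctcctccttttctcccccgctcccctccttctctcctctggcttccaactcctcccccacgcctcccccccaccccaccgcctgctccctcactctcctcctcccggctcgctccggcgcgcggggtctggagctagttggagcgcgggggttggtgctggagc
Nrp1: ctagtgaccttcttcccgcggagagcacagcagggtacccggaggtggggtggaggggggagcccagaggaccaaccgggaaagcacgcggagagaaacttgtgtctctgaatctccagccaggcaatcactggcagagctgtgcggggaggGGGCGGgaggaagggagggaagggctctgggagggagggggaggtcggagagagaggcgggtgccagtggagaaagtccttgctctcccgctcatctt
Sema5a held 5 matches, Nrp1 held 1 and Sema5b held 0, so the window with the fewest and the one with the most belong to the paired class 5 semaphorins. GGGCGG stood in 32.7% of all 32851 promoter windows of this length, in 55 of the 77 windows of axon guidance members (71.4%) and in 46 of the 61 members with a window (75.4%). Of the 14 members with a window that were lower in excitatory neurons at P60, 10 held it, so these did not stand apart from the members as a whole. No window was given for Efnb3.

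A second set of clusters was marked by the secreted class 3 semaphorins. Sema3e, the ligand of plexin-D1, was at 51.8 ± 18.2 CPM in Exc_13, 44.4 ± 14.3 CPM in Exc_12, 33.9 ± 23.2 CPM in Exc_21 and 31.9 ± 6.85 CPM in Exc_14, against a median of 4.40 CPM. Sema3c had Exc_12 (35.3 ± 14.6 CPM), Exc_13 (23.2 ± 9.80 CPM) and Exc_26 (22.1 ± 15.4 CPM) on top, against 1.75 CPM. Exc_12 and Exc_13 had the highest Oprk1 among the clusters just named, at 61.2 and 68.4 CPM, and Exc_26 is the cluster with the most Pou3f1 (98.1 CPM), known from subcortically projecting layer 5 neurons. Fezf2, known from these neurons too, was at 244 CPM there and at 262 CPM in Exc_21. Plxnd1, the receptor of Sema3e, was highest in a different cluster, Exc_23 (59.8 ± 10.4 CPM), which had Sema3e below the 5 highest clusters.

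The receptors Robo3, Robo1 and Dcc and the ligand Efnb3 had their peaks in Exc_1, Exc_26 and Exc_21. Robo3 was at 14.4 ± 6.42 CPM in Exc_1 and 10.5 ± 7.75 CPM in Exc_26, which did not differ beyond their spread. Robo1 was highest in Exc_26 (34.9 ± 15.6 CPM). Dcc, the netrin receptor, was low throughout, with 9.06 ± 3.77 CPM in Exc_21 and a median of 1.25 CPM. Sema4g was highest in Exc_21 as well (8.30 ± 6.43 CPM), which is above the next cluster, Exc_7 (5.24 ± 3.85 CPM), by less than the spread. Efnb3 was less restricted, at 113 ± 28.6 CPM in Exc_21, 84.8 ± 10.6 CPM in Exc_26 and 66.6 ± 10.8 CPM in Exc_4, against a median of 25.3 CPM.

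**Figure D2:**
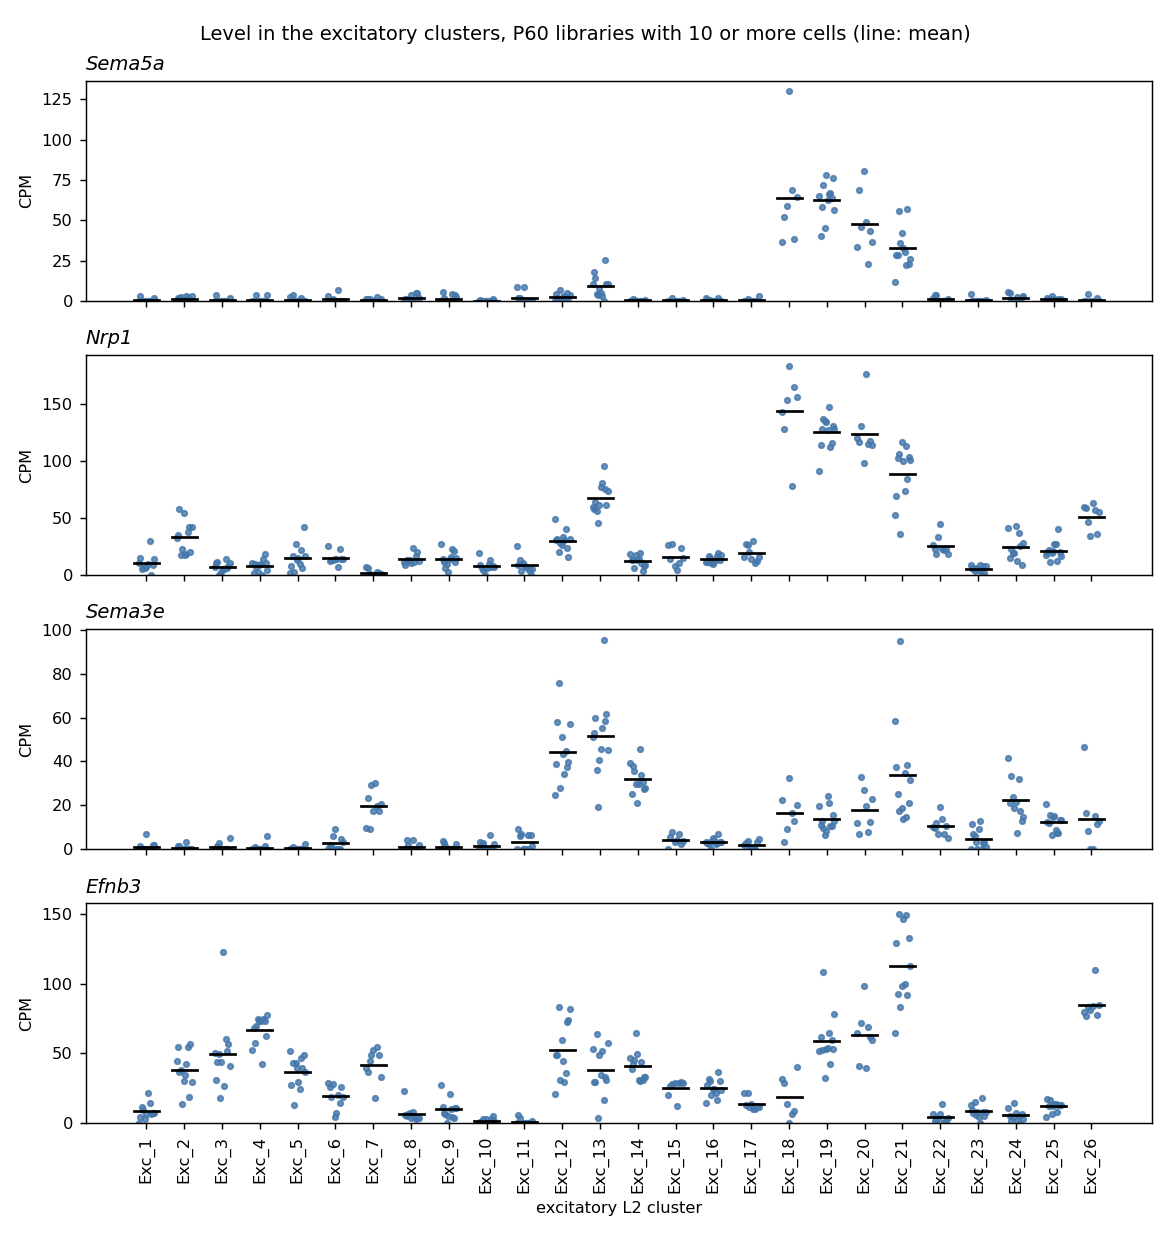
CPM of Sema5a, Nrp1, Sema3e and Efnb3 (vertical axes) in the 26 excitatory L2 clusters (horizontal axis). Points are P60 libraries with at least 10 cells of the cluster and lines are their means. Sema5a is near 0 outside Exc_18 to Exc_21, Nrp1 has the same 4 clusters on top, Sema3e peaks in Exc_13 and Exc_12, and Efnb3 in Exc_21.

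The inhibitory clusters were small at P60 (30 to 392 cells), so UMIs were summed over the 12 libraries. Sema5a was at 170 CPM in Inhib_7 (582 UMIs) and 145 CPM in Inhib_8 (66 UMIs), against a median cluster of 14.4 CPM, and no UMI was counted in the 62 cells of Inhib_10. Inhib_7 and Inhib_8 were rich in Npy (29560 and 15970 CPM), but so was Inhib_1 (21260 CPM), where Sema5a had 1 UMI (2.78 CPM). Sema3c was at 499 CPM in Inhib_11 and 389 CPM in Inhib_12, the clusters with the most Cnr1 (4623 and 5502 CPM), against a median of 77.5 CPM. Unc5b was highest in Inhib_6 (82.4 CPM), the cluster with Pvalb (1611 CPM), and Inhib_12 (81.4 CPM), each on about the same number of UMIs (27 and 32). Nrp1 peaked in Inhib_4 (52.1 CPM), a Vip cluster, Unc5d in Inhib_1 (147 CPM), a Sst cluster, Epha4 and Unc5c in Inhib_8 (125 and 78.9 CPM) and Robo1 in Inhib_10 (49.5 CPM). Each of these last 5 values rests on 21 to 57 UMIs.

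Among the endothelial clusters at P60 some members, chosen after their values were seen, were unequal between clusters that differ in known vessel markers. Endo_1 and Endo_2 had the highest Bmx (188 and 132 CPM) and Gkn3 (1485 and 1948 CPM), markers of arteries, and Endo_12 and Endo_8 the highest Slc38a5 (732 and 630 CPM) and Vwf (763 and 462 CPM), high together in veins. Sema3g was at 144 ± 45.4 CPM in Endo_1 and 168 ± 46.3 CPM in Endo_2, against 6.69 ± 6.72 CPM in Endo_12. Unc5b (138 ± 49.0 CPM in Endo_1, 17.4 ± 13.3 CPM in Endo_12) and Efnb2, the ephrin of arteries (39.5 ± 22.4 CPM in Endo_2, 7.41 ± 8.23 CPM in Endo_12), went the same way. Ntn4, a netrin of basement membranes, was at 35.6 ± 30.3 CPM in Endo_2 and at most 5.55 CPM in the other 12 clusters. Endo_2 also held 935 CPM of Acta2, a smooth muscle gene, so part of what is counted there may come from smooth muscle cells, which was not tested.

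The other direction belonged to Nrp2, Sema6a, Sema6b and Sema7a. Nrp2 was at 95.9 ± 46.8 CPM in Endo_12 and 58.3 ± 16.6 CPM in Endo_8, against 5.403 ± 7.65 CPM in Endo_1. Sema6a was at 192 ± 53.3 and 178 ± 46.2 CPM in these clusters, against 30.98 ± 16.1 CPM in Endo_2, and Sema6b at 25.1 ± 17.4 CPM in Endo_12, against 5.43 ± 6.56 CPM in Endo_2. The related Sema6d was instead at 61.4 ± 37.4 CPM in Endo_1 and 74.8 ± 26.3 CPM in Endo_2, and at 38.9 ± 23.9 CPM in Endo_12 and 40.8 ± 17.2 CPM in Endo_8, with overlapping spreads. Sema7a was at 238 ± 26.1 CPM in Endo_12 and 225 ± 47.9 CPM in Endo_8, against 152 ± 30.2 CPM in Endo_1 and 136 ± 49.7 CPM in Endo_2. Robo4 ranged from 86.8 ± 29.3 CPM in Endo_2 to 181 ± 60.7 CPM in Endo_7 over the 13 clusters. It was at 178.5 ± 29.4 CPM in Endo_12 and 171 ± 53.1 CPM in Endo_8, against 140.5 ± 32.9 CPM in Endo_1. Ephb4 was at 60.4 ± 29.0 CPM in Endo_8 and 40.6 ± 26.8 CPM in Endo_1, a difference within the spread. So were those between Endo_1 and Endo_12 of Nrp1 (194 ± 48.1 and 165 ± 32.7 CPM), Plxnd1 (33.04 ± 20.8 and 34.8 ± 11.8 CPM) and Epha2 (21.4 ± 20.2 and 14.4 ± 5.51 CPM).

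For the comparison of ages, 67 of the 72 entries passed the filter on low counts in at least 1 type, and Epha1, Ntn5, Efna4, Unc5cl and an Efna5 entry (ENSMUSG00000090425) passed in none. That entry shares the 3′ end of the other Efna5 entry, so its reads may not be assignable. Differences are P60 saline minus P21 on the log2 scale with their standard error, called at an adjusted p (edgeR's quasi-likelihood test, Benjamini-Hochberg over all genes tested in the type) below 0.05 and a change above 1.5-fold. A member that passed the filter only through the group where it is higher had to differ, so the counts below describe the members that passed.

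In excitatory neurons 60 entries were tested, and 16 fell and 0 rose with age, beside 11.1% of all 13246 tested genes that fell and 8.18% that rose. Without the requirement of 1.5-fold, 21 were lower and 2 higher (Unc5a and Unc5c, by 0.53 ± 0.19 and 0.41 ± 0.10), beside 21.1% and 19.3% of all tested genes. The 21 include Unc50 (-0.36 ± 0.12). The median difference of the 60 was -0.12 on the log2 scale and that of all genes -0.0049, and 75.0% of the 60 and 50.4% of all genes had a negative difference. The 16 were 10 ligands (Sema3c, Sema4d, Sema4g, Sema5a, Sema5b, Sema6a, Sema6c, Sema6d, Efna2 and Efnb3) and 6 receptors (Nrp1, Unc5b, Robo1, Robo3, Ephb1 and Ephb2). By family, 5 of the 7 tested semaphorins of classes 5 to 7, 2 of 6 of class 4, 1 of 6 of class 3, 2 of 7 ephrins, 2 of 11 Eph receptors, 2 of 6 Slits and Robos, 1 of 6 netrins and netrin receptors and 1 of 10 plexins and neuropilins fell. In 15 of the 16 no P60 saline library reached the lowest P21 library, the exception being Sema6c. The same holds for 21.3% of all tested genes and for 1302 of the 1476 genes called lower (88.2%).

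Sema5a (chr15:32174568-32626096 on NCBIM37) was at 26.02, 36.4 and 36.4 CPM in the 3 P21 libraries and at 4.03 to 9.39 CPM (median 6.48) in the 6 saline libraries. Every P21 library was thus well above every P60 saline library, a fall of 2.16 ± 0.19 on the log2 scale (adjusted p = 1.13e-05). Sema5b was at 7.10, 7.56 and 7.32 CPM, and then at 1.57 to 2.95 CPM (median 2.58), a log2 difference of -1.49 ± 0.16 (adjusted p = 3.50e-05). The P21 libraries differed by less than 1 CPM here. Nrp1 (chr8:130882973-131029362) was at 60.2, 65.2 and 64.5 CPM and then at 19.2 to 33.9 CPM (median 28.6), a log2 difference of -1.14 ± 0.15 (adjusted p = 0.000117).

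Efnb3 (chr11:69367594-69373707, minus strand) was at 49.8, 71.4 and 72.1 CPM at P21 and at 21.5 to 34.4 CPM (median 29.1) at P60, -1.07 ± 0.14 (adjusted p = 0.000170). P21 library 1 was the lowest of its group for this gene but still above every saline library. Sema6a was at 12.6, 10.6 and 12.8 CPM against 2.66 to 6.71 CPM (median 4.83), -1.30 ± 0.18 (adjusted p = 0.000170). Sema3c was at 11.4, 18.6 and 15.2 CPM against 2.69 to 6.93 CPM (median 6.43), -1.24 ± 0.20 (adjusted p = 0.000450).

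The receptors Robo1 (10.7, 15.6 and 13.7 CPM against 6.04 to 9.48 CPM) and Robo3 (6.99, 4.83 and 5.08 CPM against 1.85 to 3.48 CPM) differed by -0.79 ± 0.15 and -1.02 ± 0.21. Ephb1 (-0.68 ± 0.11) and Ephb2 (-0.74 ± 0.15), receptors of B-type ephrins that are known at excitatory synapses, were each lower in all 6 saline libraries than in any P21 library, and so were the ligands Sema4g (-1.53 ± 0.28), Sema6d (-0.64 ± 0.13), Sema4d (-0.63 ± 0.19) and Efna2 (-0.62 ± 0.19). The call was lost for Efna2 without P21 library 1 or 3 or without either saline library at 48 h, and for Sema4d and Sema6c without P21 library 1. Efna2 and Sema4d also lost it with all 12 P60 libraries.

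RNA of other types in the excitatory libraries also differed with age. The 5 markers of mature oligodendrocytes were at 122 to 408 CPM in excitatory neurons at P21 and at 19.7 to 69.2 CPM at P60 saline, and the 5 endothelial markers at 38.4 to 83.5 and 7.16 to 29.2 CPM. The astrocyte markers went the other way with overlapping groups, at 40.1 to 96.5 CPM and 62.6 to 143 CPM. Multiplied with the level of a member in its source type, these marker shares correspond to 1.37 CPM of Efnb3 from oligodendrocytes at P21, 2.13% of its level, and to at most 9.97% of the P21 level of the other called members from any 1 of the other 7 types, except for Unc5b. For OPC as the source this rests on 1 P21 library. These are values for single sources and were not added up over types. For Sema6a they were 7.82%, 5.71% and 5.15% at P21 from newly formed oligodendrocytes, endothelial cells and mature oligodendrocytes. At P60 saline they were 1.12%, 2.66% and 2.34%. Unc5b itself was at 2.16, 1.01 and 1.23 CPM at P21 and 0.0657 to 0.554 CPM at P60 (-2.003 ± 0.41). The shares correspond to 0.452 CPM of it from oligodendrocytes and 0.437 CPM from endothelial cells at P21, and to 0.161 and 0.0809 CPM at P60 saline, where its mean level was 0.306 CPM. In excitatory neurons the deposited cell type named another type for 276 of 5934 P21 cells and 10 of 14443 P60 cells. With only the cells whose labels agree, an alternative chosen after the data had been examined, the oligodendrocyte markers at P21 were at 70.8 to 172 CPM and the endothelial ones at 24.5 to 31.6 CPM. Of the 16 calls 13 were kept. Sema4d (-0.47 ± 0.19, adjusted p = 0.0714) and Sema6d (-0.55 ± 0.14, adjusted p = 0.00631, under 1.5-fold) were not called, and Unc5b no longer passed the filter on low counts.

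**Figure D3:**
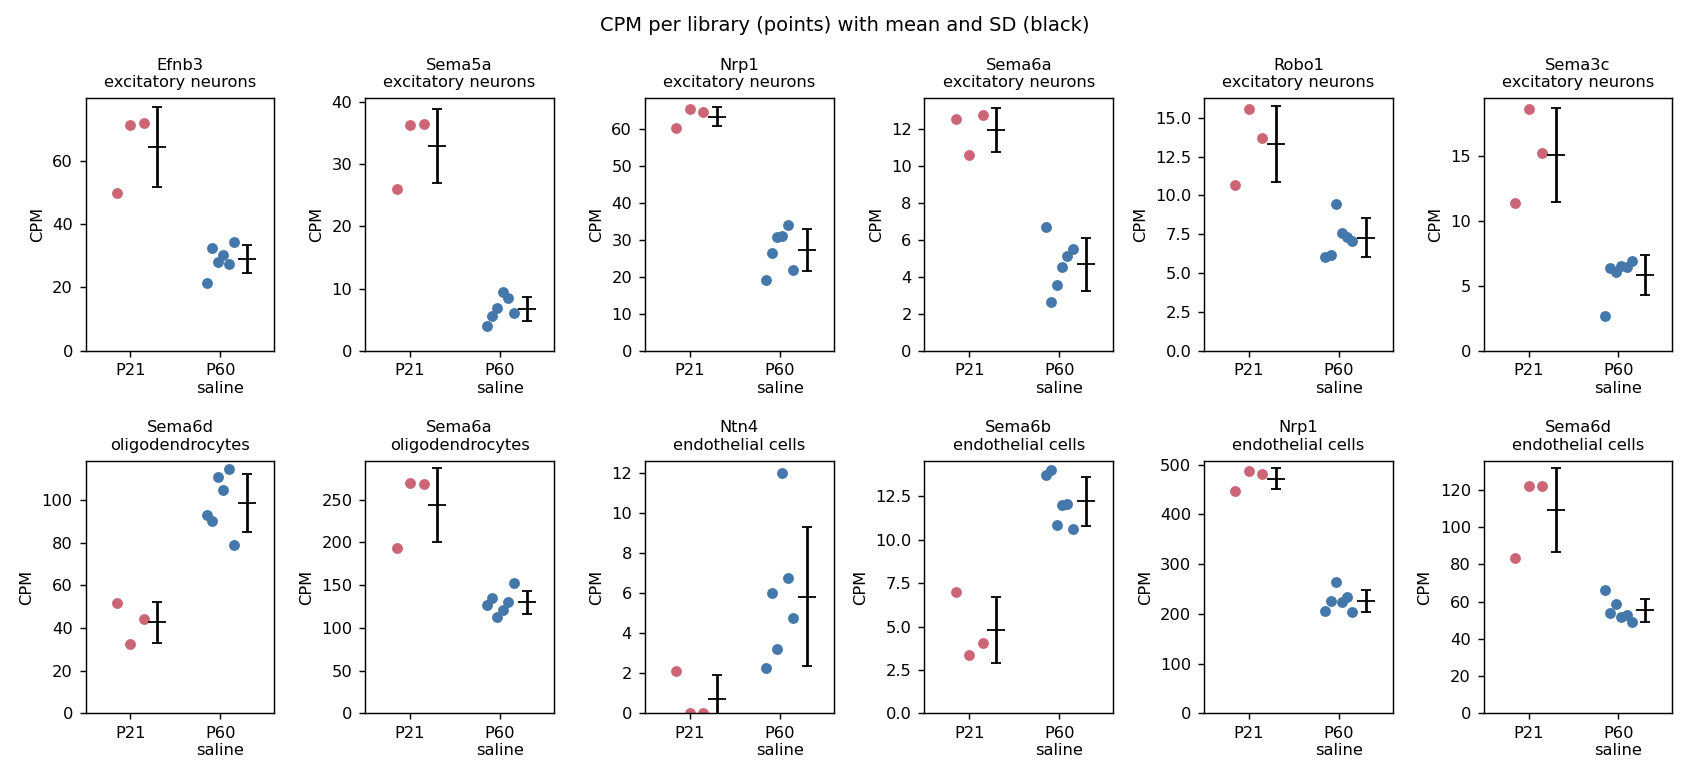
CPM (vertical axis) of Efnb3, Sema5a, Nrp1, Sema6a, Robo1 and Sema3c in excitatory neurons, of Sema6d and Sema6a in mature oligodendrocytes, and of Ntn4, Sema6b, Nrp1 and Sema6d in endothelial cells, in the 3 P21 and the 6 P60 saline libraries (points) with mean and SD (black). No group overlaps the other in any panel, as in 1302 of the 1476 genes called lower in excitatory neurons. This share was not counted in oligodendrocytes or endothelial cells. Sema6d is higher at P60 in oligodendrocytes and lower in endothelial cells, and the lower bar of Ntn4 at P21 is cut at 0.

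The shares of the excitatory clusters differed between the P21 and the P60 saline libraries as well. The P21 cells had been assigned to the P60 clusters by correlation, and the part of this assignment in the shares was not tested. Exc_18 to Exc_20, the clusters highest in Sema5a and Nrp1, made up 21.8% to 22.7% of the excitatory cells of a P21 library and 5.74% to 12.7% of those of a saline library. Therefore the comparison was repeated with every cluster given its mean P60 saline share in all libraries (limma on log2 of CPM plus 1, an alternative chosen after the data had been examined). On these weighted levels 13 members fell and 0 rose, beside 10.7% of all genes that fell and 4.56% that rose. They were 12 of the 16 above and Plxna1, a receptor of class 3 and class 6 semaphorins (unweighted -0.48 ± 0.09, under 1.5-fold). Sema5a had a difference of -1.11 ± 0.13 (unweighted -2.16), Nrp1 one of -0.65 ± 0.12 (-1.14) and Sema5b one of -0.77 ± 0.21 (-1.49). Efnb3 was at -0.83 ± 0.13 (-1.07), Sema6a at -1.24 ± 0.22 (-1.30) and Unc5b at -0.80 ± 0.20 (-2.003). Not called were Ephb1 (-0.54 ± 0.11, adjusted p = 0.00172), Sema6d (-0.37 ± 0.14, 0.0447) and Sema4d (-0.48 ± 0.17, 0.0350), all under 1.5-fold in this fit, and Sema6c (-0.61 ± 0.24, 0.0579). The 1 CPM added before the log makes differences of low levels smaller. The plain log2 ratio of the weighted mean levels was -0.63 for Sema4d (4.17 and 2.70 CPM) and -1.36 for Sema6c (1.56 and 0.605 CPM). For Unc5b it was -1.78 (1.51 and 0.439 CPM). The same test on the levels as sampled called 14 members, all lower and all among the 16, beside 11.4% of all genes lower and 4.72% higher, and Sema6c and Sema4d were already not called there.

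**Figure D4:**
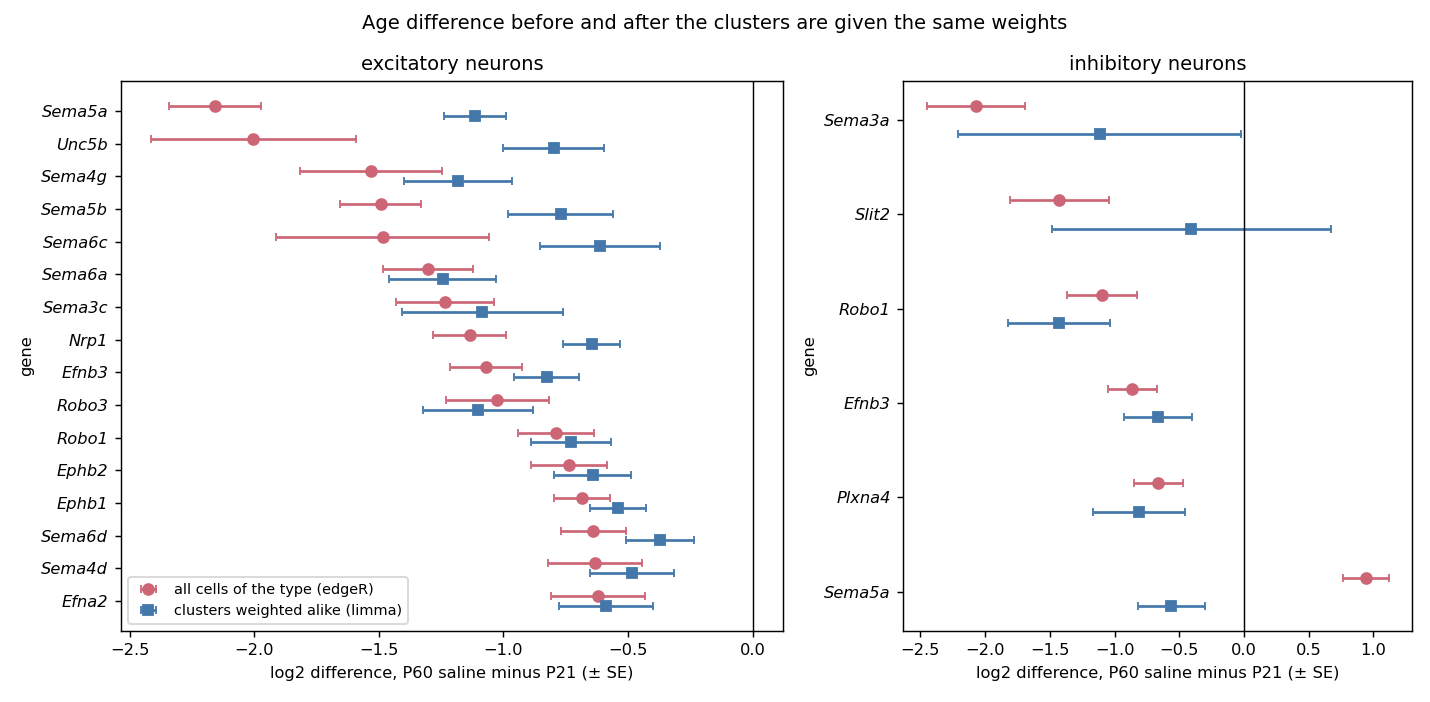
Log2 difference with its SE (horizontal axis, P60 saline minus P21) of the members called in excitatory (left) and inhibitory neurons (right), over all cells of the type by edgeR (circles) and with the clusters weighted alike by limma (squares). Sema5a moves from -2.16 to -1.11 in excitatory neurons and crosses 0, from 0.94 to -0.56, in inhibitory neurons.

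Within the 26 excitatory clusters, 531 tests of members gave 49 calls lower and 2 higher at P60, in 18 clusters, beside 6.71% of all tests lower and 4.55% higher. Among the tests of members these are 9.23% lower and 0.377% higher. Of the 49 lower calls, 11 were of Efnb3 (18 tests) and 7 of Unc50 (26 tests), which is no guidance gene. The share of lower calls thus rests in good part on these genes and does not describe the members as a whole. Efnb3 fell in 11 of the 18 clusters where it was tested, by values from -2.06 ± 0.38 in Exc_18 to -0.65 ± 0.20 in Exc_4, and its difference was negative in 17 of the 18. In Exc_25, for instance, it was at 31.4 to 38.8 CPM in 3 P21 libraries and 6.30 to 16.4 CPM in 6 saline libraries, without overlap (adjusted p = 8.13e-05). In 8 of the 11 clusters no saline library reached the P21 libraries, as in 10.8% of all tests and in 8985 of the 11263 tests called lower (79.8%). Many of the 51 calls depended on the setting: 23 were kept with DESeq2, 28 without saline library 1 at 15 days, 30 without P21 library 1 or P21 library 3, and 32 without P21 library 2. The calls of Efnb3 were kept in 7 of its 11 clusters with DESeq2 and without saline library 1 at 15 days, in 6 without P21 library 2 and in 5 without P21 library 3.

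Sema5a fell in all 4 clusters where it was tested, the ones it marks. In Exc_18 it was at 113 to 169 CPM in 3 P21 libraries and at 52.2 to 68.8 CPM in 3 saline libraries (-1.33 ± 0.23), in Exc_19 at 108 to 135 and 45.2 to 78.3 CPM (-0.84 ± 0.16), in Exc_20 at 93.6 to 126 and 23.03 to 68.6 CPM (-1.06 ± 0.26) and in Exc_21 at 62.6 to 103 and 28.2 to 56.9 CPM (-0.91 ± 0.23). The groups did not overlap in any of these clusters. All 4 calls were kept with DESeq2 and without any 1 library except P21 library 3, without which Exc_21 was not called, and with clusters of at least 30 cells in a library 2 of them (Exc_19 and Exc_21) were kept. Nrp1 fell in Exc_12, Exc_14, Exc_18, Exc_22 and Exc_24 (-1.35 ± 0.25 to -0.68 ± 0.20), again without overlap, and its difference was negative in all 16 clusters where it was tested. Of its 5 calls 2 were kept with DESeq2 and 3 without P21 library 1, P21 library 2 or saline library 2 at 48 h. Plxna1 fell in 6 of 24 clusters, of which 1 was kept with DESeq2, 2 without P21 library 1 or saline library 2 at 15 days, and 3 without saline library 2 at 48 h or saline library 1 at 15 days. Unc50, which is no guidance gene, fell in 7 of 26, of which 1 was kept with DESeq2, with all 12 P60 libraries or without saline library 1 at 15 days, and 2 without P21 library 1. Sema3e, Sema7a and Epha4 fell in 2 clusters each, and without P21 library 1 the calls of Sema3e and Sema7a were lost. Sema5b was tested in 3 clusters and called in none, with negative differences (-0.79 to -0.33). In Exc_20, its highest cluster, it was at 27.8 ± 4.38 CPM at P21 and 28.1 ± 11.4 CPM at P60 saline. In Exc_21 it was at 26.3 ± 1.54 and 11.75 ± 6.92 CPM.

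Only Unc5a and Robo2 gave a call higher at P60 in an excitatory cluster. Unc5a was at 6.03 to 15.8 CPM in Exc_4 at P21 and at 19.7 to 37.2 CPM in the saline libraries (1.42 ± 0.39, adjusted p = 0.0186), and its difference was positive in 14 of 16 clusters. This call was lost with DESeq2 and without P21 library 2, P21 library 3 or saline library 1 at 15 days. Robo2, a Slit receptor, was higher at P60 in Exc_18 (16.3 to 28.1 CPM against 32.7 to 58.7 CPM, 1.04 ± 0.30) and lower in Exc_13 (49.0 to 71.4 CPM against 16.7 to 41.9 CPM, -0.73 ± 0.24). Both calls of Robo2 were lost with DESeq2, with P21 libraries 2 and 3 summed, with all 12 P60 libraries, with clusters of at least 30 cells in a library, and without P21 library 2, P21 library 3, saline library 2 at 48 h or saline library 1 at 15 days. That in Exc_18 was also lost without saline library 2 at 15 days, and that in Exc_13 without a filter on low counts or without saline library 2 of maintenance. The difference between these clusters was not tested. The remaining calls were 1 cluster each for Efnb2, Ephb1, Ephb3, Ephb6, Plxna2, Plxna4, Sema3a, Sema3c and Sema6a, all lower.

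In inhibitory neurons 34 entries were tested, of which 5 fell and 1 rose, beside 8.29% of 8899 genes that fell and 5.74% that rose. The repulsive ligand Sema3a was at 19.1, 26.8 and 22.2 CPM at P21 and at 0 to 9.14 CPM (median 2.08) at P60 saline, -2.07 ± 0.38 (adjusted p = 0.00118). Slit2, a ligand of Robo1, was at 13.2, 15.1 and 16.6 CPM and then at 0 to 10.8 CPM (median 4.54), -1.43 ± 0.38. Efnb3 fell by 0.86 ± 0.19 (59.8, 83.8 and 96.7 CPM against 30.9 to 58.8 CPM), as did Robo1 (-1.10 ± 0.27, groups overlapping) and Plxna4, a plexin for class 3 semaphorins (-0.66 ± 0.19). The call was lost for Plxna4 without P21 library 2 or 3 or saline library 1 at 48 h, for Robo1 without P21 library 2 and for Slit2 without P21 library 3. That of Plxna4 was also lost with P21 libraries 2 and 3 summed. Only this pair was summed, and the labels do not say which P21 libraries share animals, if any.

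Markers of other types were counted in this class as well. The excitatory gene Slc17a7 was at 9.495 to 35.9 CPM at P21 and at 0 to 69.4 CPM at P60 saline, and Neurod6 at 5.59 to 12.1 and 2.16 to 89.9 CPM, with the widest spread at P60. The 5 microglial markers were at 37.4 to 45.8 CPM at P21 and at 0 to 25.0 CPM at P60 saline. Those of mature oligodendrocytes were at 49.2 to 448.5 and 13.7 to 254 CPM. Astrocyte markers went the other way, at 74.5 to 127 and 110 to 459 CPM, and in both lists the groups overlapped. The part of such RNA in the differences was not tested.

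Sema5a went the other way in inhibitory neurons, at 50.2, 41.3 and 36.3 CPM at P21 and 55.0 to 102.9 CPM (median 87.0) at P60 saline, a rise of 0.94 ± 0.18 (adjusted p = 0.00157). The groups did not overlap, and the share of all genes of which this holds was not counted in this type. However, Inhib_7, its highest cluster, made up 4.31% to 13.8% of the inhibitory cells at P21 and 15.8% to 40.4% at P60 saline, while Inhib_2 and Inhib_6, which were low in it, made up 45.5% to 60.4% and 0% to 20.2%. Here too, the part of the assignment of P21 cells to P60 clusters in these shares was not tested. Within Inhib_7 Sema5a was at 209 CPM at P21 (101 UMIs) and 163 CPM at P60 saline (295 UMIs), so the sign of the difference within this cluster was the opposite one. With the clusters weighted alike, Sema5a differed by -0.56 ± 0.26 (adjusted p = 0.327), and no member was called, beside 0.584% of all genes that fell and 0.472% that rose. Robo1 (-1.43 ± 0.40), Plxna4 (-0.81 ± 0.35) and Efnb3 (-0.66 ± 0.26) had differences of about the size above with wider errors, and Sema3a (-1.11 ± 1.09) and Slit2 (-0.41 ± 1.08) smaller ones with errors about as large or larger. The same test on the levels as sampled called only Sema5a (higher) and Efnb3 (lower), beside 3.61% of all genes lower and 2.75% higher. Of the 140 UMIs of Sema3a at P21, 31 came from Inhib_1 and 97 from Inhib_2. It was at 41.5 and 40.2 CPM in these clusters at P21 and at 28.6 and 38.1 CPM at P60 saline, where that rests on 5 and 15 UMIs. In the 3 inhibitory clusters with enough libraries (Inhib_2, Inhib_7 and Inhib_9), 31 tests of members gave 0 calls in edgeR and in DESeq2, beside 1.65% of all tests, and 4 had an unadjusted p below 0.05.

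**Figure D5:**
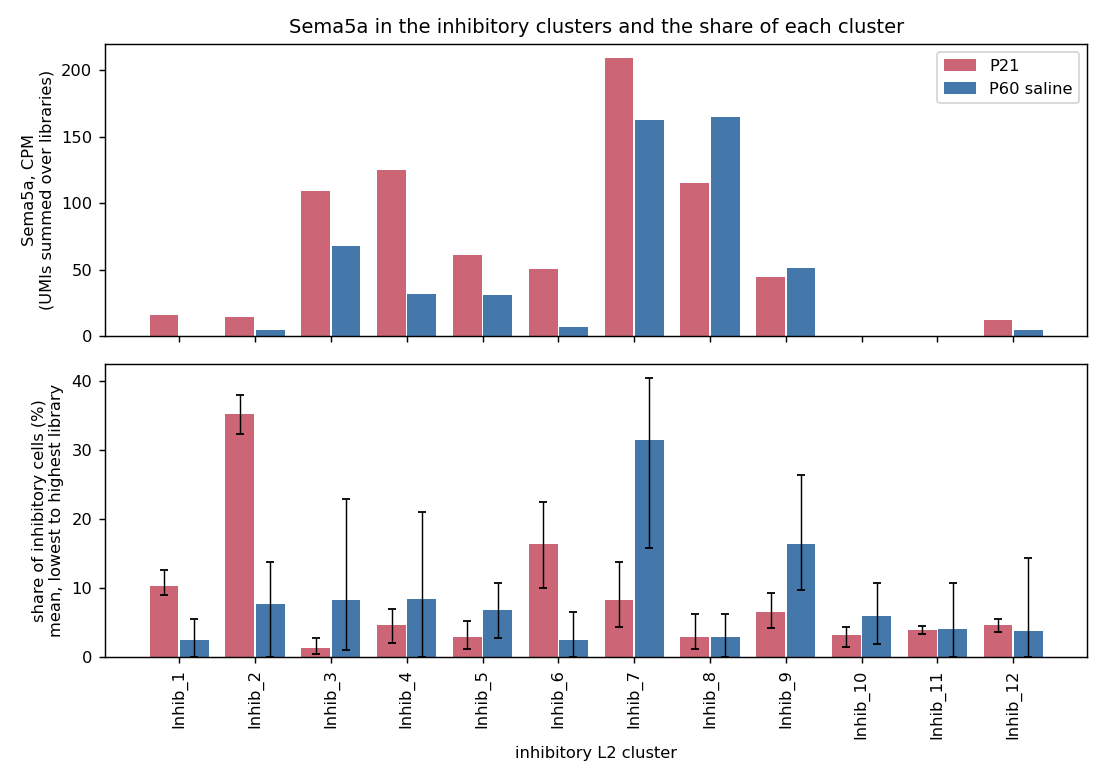
Above, CPM of Sema5a in the 12 inhibitory L2 clusters at P21 and P60 saline, UMIs summed over libraries. Below, the share (%) of each cluster among the inhibitory cells, as the mean over libraries with bars from the lowest to the highest library. Inhib_7 is high in Sema5a at both ages (209 and 163 CPM) and has the larger share at P60, whereas Inhib_2 is low in Sema5a and has the larger share at P21.

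In mature oligodendrocytes 11 entries were tested, of which 2 fell and 1 rose, beside 10.3% of 5102 genes that fell and 7.55% that rose. Sema6d rose by 1.06 ± 0.21 (51.5, 32.4 and 44.3 CPM against 78.8 to 114 CPM, median 98.8, adjusted p = 0.00151). Sema6a, a plexin-A ligand, fell by 0.96 ± 0.15 (193.5, 269 and 268 CPM against 113 to 153 CPM, median 129, adjusted p = 0.000242), and Ephb1 by 0.82 ± 0.17 (139, 139 and 130.5 CPM against 65.3 to 105 CPM). Neither group overlapped the other in these 3 genes, and the share of all genes of which this holds was not counted in this type. The 3 markers of newly formed oligodendrocytes were at 202 to 211.5 CPM in these cells at P21 and at 89.8 to 195 CPM at P60 saline. The 5 markers of mature oligodendrocytes were higher at P21 too, at 80680 to 101400 CPM against 47270 to 58650 CPM. Microglial markers were at 35.0 to 169 and 6.88 to 30.6 CPM. The part of these shifts in the differences was not tested. The level of Efnb3 in these cells differed by 0.19 on the log2 scale and did not pass the test.

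In endothelial cells 32 entries were tested, of which 4 fell and 3 rose, beside 7.35% of 10416 genes that fell and 5.31% that rose. Nrp1, known as a VEGF co-receptor in vessels, was at 447, 488 and 480.5 CPM at P21 and 204 to 264 CPM (median 224) at P60 saline, -1.21 ± 0.10 (adjusted p = 2.33e-06). This is close to its difference in excitatory neurons as sampled (-1.14 ± 0.15), but not to that with the excitatory clusters weighted alike (-0.65 ± 0.12). Its partner receptor Plxnd1 (54.2, 49.1 and 55.2 CPM against 28.0 to 37.2 CPM) fell by 0.83 ± 0.13, Sema6d (83.3, 122 and 122 CPM against 48.9 to 66.3 CPM) by 1.13 ± 0.14, and Epha2 (21.5, 33.6 and 33.3 CPM against 10.6 to 20 CPM) by 1.12 ± 0.23. None of these 4 overlapped between the ages, and the share of all endothelial genes of which this holds was not counted. Each was called whichever library was left out.

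The 3 that rose were less firm. Sema6b was at 6.97, 3.36 and 4.06 CPM at P21 and 10.6 to 14 CPM at P60 saline (1.14 ± 0.29, adjusted p = 0.0129), without overlap. It lost its call without P21 library 2 or 3 and with all 12 P60 libraries. Ntn4 was at 2.12, 0 and 0 CPM and then at 2.28 to 12.0 CPM (2.54 ± 0.76, adjusted p = 0.0333), which rests on 7 UMIs at P21 and 46 at P60. It was not called without P21 library 2 or 3, saline library 2 of maintenance, saline library 2 at 48 h or saline library 1 at 15 days. Sema3g (0.64 ± 0.20, adjusted p = 0.0360, groups overlapping) lost its call without 6 of the 9 libraries and with all 12 P60 libraries. Ntn4 and Sema3g were not called either with P21 libraries 2 and 3 summed. Ephb4 was at 0.62 ± 0.20 (adjusted p = 0.0505), just outside the threshold. The 6 pericyte and smooth muscle genes together were at 4070 to 5143 CPM in the endothelial class at P21 and at 5335 to 7605 CPM at P60 saline. Markers of astrocytes (247 to 334 and 76.8 to 294 CPM), microglia (50.3 to 171 and 17.0 to 68.0 CPM) and fibroblasts (44.6 to 84.8 and 16.5 to 46.6 CPM) went the other way, with overlapping groups. The part of any of these lists in the differences was not tested.

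No member was called in astrocytes (10 tested, 1.11% of all genes called in either direction), newly formed oligodendrocytes (12 tested, 1.94%) or microglia (5 tested, 0.726%). These types have fewer cells and few called genes at all. OPC had only 1 P21 library with at least 10 cells and were not tested.

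Whether an age difference itself differed between excitatory neurons and another type was tested as an interaction in libraries that hold both types, at an adjusted p below 0.05. For inhibitory neurons 11 of 56 members differed (19.6%, beside 11.1% of all genes) and for endothelial cells 9 of 60 (15.0%, beside 14.2%), the latter share being near that of all genes. For mature oligodendrocytes 5 of 55 differed (9.09%, beside 4.62%) and for newly formed oligodendrocytes 3 of 52 (5.77%, beside 2.90%). For astrocytes (beside 0.189%) and microglia (beside 1.17%) edgeR called 0 of 55 and 0 of 50, and 8 and 3 members had an unadjusted p below 0.05.

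For Sema5a the log2 age difference was higher than in excitatory neurons by 3.03 ± 0.21 in inhibitory neurons (adjusted p = 1.20e-10), by 2.11 ± 0.37 in endothelial cells and by 1.598 ± 0.25 in newly formed oligodendrocytes, where it was at 195 to 242 CPM at P21 and 114 to 192 CPM at P60 saline. No interaction was run on weighted levels. With the clusters weighted alike Sema5a differed by -1.11 among excitatory and by -0.56 among inhibitory neurons (as sampled, -2.16 and 0.94), and the part of the cluster shares in these interactions was not tested. The age difference of Efnb3 was higher in mature oligodendrocytes by 1.23 ± 0.20 (adjusted p = 3.39e-05), that of Sema6d by 1.63 ± 0.27 and that of Unc5b by 2.27 ± 0.37. In excitatory neurons Unc5b was only at 1.47 CPM at P21 and 0.306 CPM at P60 saline. It did not pass the filter there in cells whose labels agree. The part of RNA from other types in the interactions of Unc5b was not tested. In endothelial cells Plxnd1 differed in the negative direction (-0.93 ± 0.20), and in inhibitory neurons so did Sema3a (-1.69 ± 0.35), Slit2 (-1.597 ± 0.35) and Plxna4 (-0.60 ± 0.17). With the inhibitory clusters weighted alike, Slit2 was at 3.39 CPM at P21 and 3.53 CPM at P60 saline, Sema3a at 5.71 and 4.24 CPM and Plxna4 at 47.3 and 28.4 CPM, so that the levels of Slit2 came close to each other and those of Plxna4 did not. Nrp1, which fell in both excitatory neurons and endothelial cells, was not among the members that differed in this test on levels as sampled.

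Of 44 further genes of these pathways, co-receptors, other ligands and intracellular partners, 42 were tested in excitatory neurons, where 5 fell (11.9%, beside the 11.1% of all genes) and 2 rose (4.76%, beside 8.18%), shares near or below those of all genes. The falls included 3 of the collapsin response mediators that carry semaphorin signals, Dpysl5 (-1.89 ± 0.18), Dpysl2 (-0.97 ± 0.19) and Crmp1 (-0.63 ± 0.08), the repulsive guidance ligand Rgma (-1.56 ± 0.25) and the exchange factor Vav2 (-1.11 ± 0.25). The adaptor Nck2 (0.81 ± 0.27) and the exchange factor Kalrn (0.65 ± 0.11) rose. In inhibitory neurons 3 of 32 fell (9.38%, beside 8.29%) and 0 rose, all 3 of the same mediator family: Dpysl2 (-0.97 ± 0.18), Dpysl3 (-0.80 ± 0.18) and Dpysl5 (-0.62 ± 0.17). In endothelial cells 3 of 32 fell, 9.38% beside 7.35% (Srgap1, a partner of the Slit receptors, -1.25 ± 0.20; Flrt2, an Unc5 ligand, -0.90 ± 0.20; Fyn, -0.74 ± 0.14) and Rnd1 rose by 1.11 ± 0.26. In mature oligodendrocytes 1 of 12 rose (Dock1, 1.38 ± 0.35) and 1 fell (Gipc1, -0.74 ± 0.18), and Dpysl2 fell in newly formed oligodendrocytes (-0.75 ± 0.19, 1 of 14). In astrocytes and microglia 0 of 21 and 0 of 8 were called.

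Cocaine against saline was tested at each time point with all 12 P60 libraries in the model, as 190 tests of members over the 8 types at each. No member was called at any time, by edgeR or by DESeq2, beside 0.00992% of all tests at maintenance, 0.00826% at 48 h and 0.339% at 15 days. An unadjusted p below 0.05 was seen in 10, 19 and 3 of the 190 tests (5.26%, 10.0% and 1.58%, beside 4.47%, 4.53% and 5.38% of all tests), and the lowest adjusted p was 0.735, 0.538 and 0.134. With 2 libraries a group, this does not show that the levels were alike. The lowest unadjusted p at 48 h belonged to Ephb6 in OPC (-1.79 ± 0.50) and to Sema4g in excitatory neurons (1.46 ± 0.34, cocaine minus saline), with adjusted p of 0.757 and 0.546 in edgeR.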

How the data were processed

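The authors aligned reads to mm9 with Cell Ranger, clustered cells with Seurat 2.1.0 (tools and build per the labels and the study's methods), and deposited raw UMI counts per gene and cell for 15 libraries, with no normalization, and a table of the retained cells with their type and L2 cluster. A cell's type was taken from its deposited L2 cluster, also where the deposited cell type named another. UMI counts were summed per library and type or cluster, leaving out sums of fewer than 10 cells, and without 13 mitochondrial and 142 ribosomal protein genes. CPM are these counts per 1000000. The depth per library is given in the report. Doublets and cells of low quality had been removed by the authors, and no further filter was set.

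Counts were tested in R 4.3.3 with edgeR 4.0.16 (filterByExpr, TMM, robust quasi-likelihood test), 1 fit per type or cluster over all genes, with Benjamini-Hochberg adjustment. Interactions used the library as a block. The scripts were tested on simulated data. Alternatives were DESeq2 1.42.0, its size factors in edgeR, no filter on low counts (at least 1 UMI), no fold threshold, all 12 P60 libraries, P21 libraries 2 and 3 summed, at least 30 cells, all genes kept in the totals, no library block, and leaving out each library. The test with clusters weighted alike (limma 3.58.1, log2 of CPM plus 1, the same 0.05 and 1.5-fold limits) the same test on the levels as sampled, and the test on cells whose labels agree were added after the data had been examined.

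The members and lists were chosen with earlier results of these data known. Named were, per type, up to 4 members highest there with the largest ratio to the next type and at least 20 UMIs; per excitatory or inhibitory cluster set, the 8 with the largest ratio of the highest to the median cluster; every member called with age in neurons, and up to 3 rises and 3 falls in each other type; and members whose age difference differed between types and were called in at least 1. Efnb3, Robo1 and Plxnd1 in the excitatory clusters, the members in the endothelial and newly formed oligodendrocyte clusters, and the cluster markers were chosen after their values were seen. In the endothelial cells all 4 falls and, beside the 3 rises, Ephb4 are given. Sequences are RefSeq's, on GRCm38.p6; gene positions are from the GENCODE annotation of NCBIM37 (mm9).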

Additional observations from a re-analysis of the deposited data

Results flagged for a closer look

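In excitatory neurons, Sema3c was at 2.69 CPM in saline library 1 of maintenance and at 6.03 CPM in the nearest of the other 5, a gap that takes up most of the range of the group. Among 32 groups of saline libraries checked in this way this was the 1 that stood apart, and chance sets apart about 1 in 20 groups.

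The following differences of the log2 age difference (other type minus excitatory neurons) passed the test of the difference itself for members called in at least 1 type. Against inhibitory neurons they were 3.03 for Sema5a, 1.39 for Sema6a, 2.08 for Unc5b, 1.40 for Sema3c, 1.82 for Sema5b, 0.99 for Sema4g, -1.69 for Sema3a, -1.597 for Slit2 and -0.60 for Plxna4. Against endothelial cells they were 2.11 for Sema5a, 0.85 for Sema6a, 1.597 for Unc5b, 1.18 for Sema6b, 1.49 for Sema3c and -0.93 for Plxnd1. Against newly formed oligodendrocytes they were 1.598 for Sema5a and 2.23 for Sema5b, and against mature oligodendrocytes 1.23 for Efnb3, 2.27 for Unc5b and 1.63 for Sema6d. Sema5b was not tested for age on its own in either of the other types. The values of Unc5b rest on an excitatory level of 1.47 CPM at P21 and 0.306 CPM at P60 saline. The part of RNA from other types in them was not tested.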

How the results depend on the processing

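Over the 7 types tested (OPC were not) the number of members called with age was 32, and 28 to 34 when any 1 library was left out. It was 15 to 18 in excitatory neurons (16 in the main test), 4 to 7 in inhibitory neurons (6), 3 to 5 in mature oligodendrocytes (3; 5 without saline library 2 of maintenance) and 4 to 7 in endothelial cells (7; 4 without P21 library 2). In the excitatory L2 clusters it was 32 to 53 (51; 32 without saline library 1 at 15 days), in the inhibitory L2 clusters 0, for the interaction 24 to 32 (28), and for cocaine 0. Counts that moved by over 1.5 times were 23 with DESeq2 and 97 without a filter on low counts in the excitatory L2 clusters, 6 without this filter and 5 with all 12 P60 libraries in mature oligodendrocytes. In inhibitory neurons the count was 0 with the clusters weighted alike and 2 by the same limma test as sampled. For cocaine it was 1 without a filter, Sema4g in excitatory neurons at 48 h (1.47, adjusted p = 0.0292). Among the called members the sign of the fitted difference turned only for Sema5a in inhibitory neurons with the clusters weighted alike (-0.56, adjusted p = 0.327), a setting that by its construction removes the difference in cluster shares. In that setting Slit2 kept a negative fitted difference (-0.41), although its weighted mean level was slightly higher at P60 (3.53 CPM, against 3.39 CPM at P21). Signs of members that were not called, such as Epha3 in inhibitory and Unc5d in excitatory neurons, turned too. With P21 libraries 2 and 3 summed, 29 of the 32 calls remained (not Plxna4 in inhibitory neurons, nor Sema3g and Ntn4 in endothelial cells) and 3 were gained. With all 12 P60 libraries 28 of the 32 remained, and 35 were called in all. Lost there were Efna2 and Sema4d in excitatory neurons and Sema3g and Sema6b in endothelial cells. Endothelial Ephb4 gained its call with DESeq2's size factors, no filter, all 12 P60 libraries, all genes kept in the totals or cells of agreeing labels, and without P21 library 1 or saline library 1 at 15 days. For the other changes the cause was not tested.

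The highest type of a member was the same for 62 to 67 of 71 detected members over the 4 alternatives for levels; among those named, Ephb3, Plxna3, Epha2 and Sema3b changed to the next type in at least 1. No paired analysis was possible because P21 and P60 saline libraries share no animals and their replicate numbers pair no samples; the interaction used the library as a block and called 21 members without it. Counts under about 20 UMIs (Ntn4 at P21, Unc5b in excitatory neurons at P60) limit single values.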
